A study of Mus musculus with 8 samples.

Results

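The array probes described here were well above background in every wild type mouse liver and not well above background in any liver labelled Bcl-6 deficient. This holds for these probes, and further probes of some of their genes stayed detectable. The members were chosen by a presence call on each array. A probe counted as present when the scanner software marked its signal as well above background. Members were the probes present on all 4 wild type arrays and on none of the 4 arrays labelled Bcl-6 deficient. Of 56605 probes, 52 met this rule. They made up 0.192% of the 27026 probes present on all 4 wild type arrays. Because the rule used the contrast between the genotypes, differences between genotypes are given below as a description, with no test.

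Whole liver of C57BL6 mice aged 10 to 11 weeks was profiled on 8 one-colour Agilent arrays of 1 slide. The groups were male wild type, male liver specific Bcl-6 deficient, female wild type and female liver specific Bcl-6 deficient, with 2 arrays each (replicates 3 and 4). The promoter that drove the deletion and the deleted part of the gene were not given in the sources used here. The labels say only that the replicates were separate samples, so p-values measure the spread between these samples, and with 2 arrays a group the precision of each value is limited. The array positions placed wild type livers at the edges of the slide and livers labelled Bcl-6 deficient in its middle, so genotype and position cannot be told apart.

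BCL6 is a zinc-finger protein that represses transcription. In the liver its binding sites overlap those of STAT5, the factor that growth hormone activates, and the rhythm of growth hormone release sets much of the difference between male and female liver. The study compared the genotypes within each sex to ask how Bcl6 bears on the sex difference of the liver.

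The single Bcl6 probe did not mark the label. Its level, a log2 signal on a scale where the 75th percentile of each array is near 0, was 3.20 and 3.55 in wild type males and 4.31 and 4.86 in males labelled Bcl-6 deficient. In females it was 2.02 and 4.16 against 4.04 and 4.82. The probe was thus not lower in the labelled livers of either sex. If it lies outside the deleted part it is no check of the label. Hepatocyte markers were present throughout, with 12 of 12 on all 8 arrays. From 28073 to 30624 probes were present on an array (49.6% to 54.1%), and no spot was saturated. Male wild type replicate 4 had the fewest present probes and the highest floor, the lowest level called well above background on an array. That floor ran from -4.38 to -3.84 over the 8 arrays.

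Of the 52 members, 37 carried a gene symbol and 15 did not. The named members were 37 different genes on 17 chromosomes. They comprised 29 protein-coding genes, 7 long non-coding RNAs and 1 transcribed pseudogene. The reverse pattern, absent in all wild type livers and present in all livers labelled Bcl-6 deficient, was shown by 164 probes. Within males alone, 270 probes were present on both wild type arrays and absent on both labelled arrays, and the members were 19.3% of these. Within females alone 325 probes did so, of which the members were 16%.

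Promoters of the members were searched for 3 motifs to show what the genes carry near their start. RefSeq promoters (GRCm38.p6, from 250 bases before to 50 bases after a start) matched 27 of the 37 named genes with 38 promoters. The BCL6 consensus TTCCTAGAA, on either strand, was in 1 of 38 promoters (2.63%) and in 0.411% of all 32851 promoters. The palindrome TTCNNNGAA, the core of STAT sites, was in 5 of 38 (13.2%) and in 8.30% of all promoters. Every match of the first motif is also a match of the palindrome. The HNF4A consensus CAAAGTCCA was in 0 of 38 and in 0.475% of all promoters. The 5 genes with the palindrome were Nox4, Dusp14, Gm15401, Rd3 and Rian. Nox4 is shown because its match fits both motifs, and Rian because it is one of a pair of neighbouring imprinted members described below. Both stretches are on the plus strand, at chr7:87246399-87246698 and chr12:109603695-109603994, with the match in capitals. A match in these letters is a description and not a bound site.
Nox4: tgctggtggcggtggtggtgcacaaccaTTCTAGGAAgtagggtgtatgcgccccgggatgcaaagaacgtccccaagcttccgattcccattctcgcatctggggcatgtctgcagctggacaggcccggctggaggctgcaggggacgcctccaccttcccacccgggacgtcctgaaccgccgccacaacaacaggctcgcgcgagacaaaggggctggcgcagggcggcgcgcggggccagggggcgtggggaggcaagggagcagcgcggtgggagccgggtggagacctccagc
Rian: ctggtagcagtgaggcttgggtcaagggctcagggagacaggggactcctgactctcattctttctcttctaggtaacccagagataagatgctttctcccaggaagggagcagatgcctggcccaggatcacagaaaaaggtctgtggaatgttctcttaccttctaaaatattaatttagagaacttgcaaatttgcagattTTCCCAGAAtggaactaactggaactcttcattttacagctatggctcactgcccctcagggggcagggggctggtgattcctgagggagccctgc

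The member probes were dim. Their mean wild type levels ran from -3.81 to -1.34 with a median of -2.77, against a median of 0.18 for all probes present on the 4 wild type arrays. For 21 of the 52 the wild type mean lay within 1 log2 unit of the mean wild type floor (-4.12). At or below the level of the brightest member there were 7933 probes present on all wild type arrays, and the members were 0.655% of these. The median level of the members was -2.53 and -2.98 on the male wild type arrays and -4.54 and -4.47 on the labelled male arrays. In females it was -3.14 and -3.57 against -4.64 and -4.73. On each labelled array this median lay below the floor of that array. Probes differ in how strongly they bind, so their signals do not rank transcripts against each other.

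A gap was taken as the lowest wild type level minus the highest level among the labelled Bcl-6 deficient arrays. Its median was 0.57. It exceeded 1 for 17 members, lay between 0.5 and 1 for 12 and was under 0.5 for 23. The widest gap, 2.98, belonged to the unnamed transcript ENSMUST00000047399, followed by Zfp985 (2.66). The genotypes overlapped for 2 members, Igsf1 (-0.05) and Zdhhc2 (-0.04), and Mbd1 (0.03) was the next closest. Just outside the rule lay 65 probes present on all wild type arrays and on 1 labelled array, and 97 present on 3 wild type arrays and on no labelled one. The brightest of the former with a gene symbol was Nat8f5, an N-acetyltransferase family gene. It was at 3.64 and 3.33 in wild type males and -4.03 and -3.55 in labelled males. In females it stood at -2.65 and -3.06 against -4.71 and -6.05. A further probe of Acsm2 and 1 of Lipn, a lipase gene, followed it among those with a symbol.

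The word "off" overstates the labelled livers. Under a more lenient mark of the same scanner software, a positive signal significant against background, all 52 members were also detected on all 4 wild type arrays. On the labelled arrays 38 members passed this mark on all 4 arrays, 10 on 3, 1 on 2, 2 on 1 and 1, ENSMUST00000047399, on none. The members were therefore near background in the labelled livers, and fold changes are given as bounds. A bound was computed as the wild type mean over the higher of the floor and the probe's own level in the labelled livers. Where the labelled levels lay above the floor, as for Zhx2 in females, it equals the measured ratio. It holds for the deposited values and does not cover the spread between arrays. Without wild type replicate 3 the Ces4a bound in males fell from 13.6 to 10.3. By this bound the members were at least 1.29-fold to at least 13.6-fold lower in males (median 2.53) and at least 1.11-fold to at least 7.70-fold lower in females (median 1.92). In males 35 members were at least 2-fold lower and 15 at least 4-fold. In females 25 and 8 were, and 24 were at least 2-fold lower in both sexes. As measured, the median difference of labelled from wild type livers was -1.995 in males and -1.52 in females, against -0.06 and -0.02 for all 30578 probes tested. With normexp background correction of the median signals and an offset of 50 the member medians were -0.39 and -0.15. The measured size thus depends on the processing, and which of these steps changed it was not tested. Because whole liver was measured, fewer cells of a type and less RNA per cell cannot be told apart.

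Genes of DNA binding and transcription were 6 of the named members, and 3 of them had gaps over 1. Olig1 (NM_016968, chromosome 16), a basic helix-loop-helix factor of the oligodendrocyte lineage, had the brightest wild type signal of the members. Its levels were -0.46 and -0.29 in wild type males and -4.32 and -5.93 in labelled males, and -2.65 and -1.98 against -4.45 and -5.35 in females. It was at least 13.2-fold lower in labelled males and at least 3.86-fold lower in labelled females. Zfp985 (NM_001014397, chromosome 4) encodes a zinc-finger protein. It stood at -1.01 and -1.27 in wild type males and -4.85 and -4.96 in labelled males, and at -2.07 and -2.19 against -5.25 and -5.17 in females. Both genotypes were tight around their means, and the bounds were at least 7.79-fold in males and at least 4.38-fold in females. Irx1 (NM_010573, chromosome 13), an Iroquois homeobox gene that patterns embryonic tissues, was at -2.83 and -2.45 in wild type males and -6.20 and -6.07 in labelled males. In females it was at -1.50 and -2.78 against -6.22 and -4.77, with a gap of 1.94. Its bound was at least 2.75-fold in males and at least 4.35-fold in females, the latter 2.79 without wild type replicate 3 and 6.77 without replicate 4. Mycn, a MYC family oncogene, was at -2.51 and -2.92 against -4.98 and -3.90 in males and at -3.04 and -3.16 against -6.18 and -4.98 in females. The other two were dimmer or closer. Mbd1, which binds methylated CpG sites, was at -2.74 and -2.36 against -3.85 and -4.43 in males and at -3.30 and -3.82 against -4.70 and -4.29 in females, a gap of 0.03. Zhx2, which represses alpha-fetoprotein after birth, had a wild type mean of -3.45 and was at least 1.49-fold lower in each sex.

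A group of 7 members held enzymes and genes of enzyme families, 1 of them a pseudogene, and 5 were at least 2-fold lower in both sexes. The enzymes Wnk4, Dusp14 and Usp19 are described in other groups. Ces4a (NM_146213, chromosome 8), a carboxylesterase of the family that hydrolyses esters and drugs, had the largest bound of all members. Its levels were 0.07 and -0.73 in wild type males and -5.36 and -5.56 in labelled males, and -2.20 and -3.83 against -4.38 and -5.65 in females. It was at least 13.6-fold lower in labelled males. In females its bound was 2.37, or 1.35 without wild type replicate 3 and 4.18 without replicate 4. Gal3st1 (NM_016922, chromosome 11) makes the sulfated glycolipid sulfatide. It stood at -2.55 and -1.70 against -4.40 and -3.93 in males and at -2.11 and -2.16 against -4.64 and -4.31 in females, with near equal wild type levels in the sexes. Nox4 (NM_015760, chromosome 7), an NADPH oxidase that produces hydrogen peroxide, was at -1.44 and -1.70 against -3.97 and -4.04 in males. In females it was at -2.64 and -3.44 against -4.01 and -5.42, so the bound was at least 5.33-fold in males and at least 2.17-fold in females. Acsm2 (NM_146197, chromosome 7) activates medium-chain fatty acids in mitochondria. Its wild type levels were -2.02 and -3.01 in males and -1.37 and -3.85 in females, and its labelled levels were -5.12 and -6.12 in males and -4.91 and -6.12 in females. The spread among wild type females was wide, and the female bound of 3.14 became 1.33 without wild type replicate 3 and 7.39 without replicate 4. The pseudogene Cyp2c53-ps, of the Cyp2c family of cytochromes P450, was at -1.75 and -2.35 against -4.53 and -4.71 in males and at -3.18 and -3.34 against -4.37 and -5.26 in females. The signal of a probe for a Cyp2c pseudogene can include transcripts of its close relatives, so its source gene is uncertain. Steap1, of a family of metal reductases, and Zdhhc2, a palmitoyltransferase, were at least 1.83-fold and at least 1.93-fold lower in males. Zdhhc2 was at -2.89 and -3.21 against -4.47 and -3.81 in males and at -2.77 and -3.85 against -4.14 and -5.13 in females, so its highest labelled array lay just above its lowest wild type array.

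Transport of ions and nucleosides was represented by 4 members. Slc26a4 (NM_011867, chromosome 12) encodes pendrin, an anion exchanger known from the inner ear and thyroid. Its levels were -2.56 and -2.22 against -4.95 and -6.07 in males and -1.48 and -1.15 against -6.16 and -4.35 in females. It had the largest female bound, at least 7.70-fold, beside at least 3.27-fold in males. Atp12a (NM_138652, chromosome 14), the catalytic subunit of the non-gastric proton-potassium pump, ran the other way between the sexes. It was at -0.88 and -1.45 against -4.63 and -6.09 in males and at -2.73 and -3.05 against -4.28 and -6.04 in females, with bounds of at least 7.61-fold and at least 2.59-fold. Wnk4, a kinase that regulates salt transport in the kidney, was at -1.63 and -1.82 against -6.27 and -4.73 in males. In females it was at -3.18 and -3.94 against -4.12 and -4.96, a gap of only 0.17 over all arrays. The nucleoside transporter Slc29a2 was dim (wild type mean -3.37) and at least 1.78-fold lower in males and at least 1.48-fold lower in females.

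Long non-coding RNAs were 7 members. Meg3 (NR_027652) and Rian (NR_028261) are maternally expressed imprinted RNAs of the Dlk1-Dio3 region on chromosome 12, and by annotation order they were the closest pair of named members, 20 places apart. The next closest pair, Adrb3 and Zdhhc2, lay 177 places apart. Meg3 was at -2.84 and -3.13 against -6.13 and -5.96 in males and at -0.92 and -2.31 against -4.96 and -5.26 in females. It was at least 2.16-fold lower in males and at least 6.26-fold lower in females, the latter 3.87 without wild type replicate 3 and 10.1 without replicate 4. Rian was at -2.32 and -3.39 against -4.52 and -4.76 in males and at -1.12 and -2.17 against -3.95 and -4.22 in females. Mirg, another RNA of that region chosen after its values were seen, was present on 3 wild type and 2 labelled arrays. It was at -2.93 and -4.55 against -3.15 and -4.67 in males and at -1.57 and -2.17 against -3.77 and -4.22 in females, so the male genotypes overlapped and the female ones did not. The protein-coding genes of the region, Dlk1, Rtl1, Dio3 and Begain, also chosen after their values were seen, were on no array. Gm15230 (XR_387114, chromosome X) was at -0.98 and -1.23 against -4.17 and -4.56 in males and at -2.84 and -2.87 against -4.31 and -4.24 in females, with tight replicates in all 4 groups. Gm15401 (NR_040421, chromosome 6) was at -1.78 and -3.11 against -4.19 and -5.11 in males and at -1.61 and -2.74 against -5.74 and -5.37 in females. Its male bound of 3.13 was 1.97 without wild type replicate 3 and 4.97 without replicate 4. The other 3, Gm42293, 2310001K24Rik and 6030443J06Rik, had wild type means of -3.57, -3.51 and -3.69 and bounds of at most 1.63 in either sex.

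Receptors and other surface or secreted proteins were 6 members. Lag3 (NM_008479, chromosome 6), an inhibitory receptor of activated T cells, was at -1.70 and -1.72 against -4.90 and -4.15 in males and at -2.75 and -2.84 against -5.49 and -5.18 in females. Markers of T and natural killer cells were on the array for 16 genes, 10 of them present on all 8 arrays and Ncr1 on none. Their summed linear signal, which weighs the brightest genes most, was 11.1 to 12.8 in wild type males and 10.1 to 12.7 in labelled males. In females it was 7.52 to 10.5 against 7.46 to 8.67, and these ranges overlapped between the genotypes in each sex. Over the 13 genes tested, each by its brightest probe, the median difference of labelled from wild type livers was 0.92 in males and -0.28 in females. The part of these cells in the Lag3 difference was not tested. Icam4 (NM_023892, chromosome 9), an adhesion molecule of erythroid cells, was at -1.70 and -2.00 against -4.62 and -4.05 in males and at -3.05 and -2.66 against -4.53 and -4.42 in females. The summed signal of the erythroid markers was 228 to 333 against 329 to 418 in males and 294 to 317 against 275 to 281 in females. This sum was not lower in labelled males and was lower in labelled females. The median difference over the 7 erythroid genes tested was 0.59 in males and -0.07 in females. The part of these cells in the Icam4 difference was not tested in either sex. Adrb3, the beta-3 adrenergic receptor known from fat tissue, was at -2.03 and -1.99 against -4.87 and -4.20 in males and at -3.73 and -3.24 against -4.77 and -4.69 in females. Of 14 markers of mesothelium and adjacent tissue, fat among them, 5 were present on all arrays, and Adipoq, Plin1, Cpa1, Pnlip and Prss1 were on none. Their summed signal was 132 to 134 against 91.4 to 117 in males and 110.1 to 136 against 103 to 106 in females. That sum was lower in the labelled livers without overlap. Gene by gene, the median difference of labelled from wild type livers over the 9 genes tested was -0.17 in males and 0.16 in females. The fat markers Adipoq and Plin1 were thus at background throughout, and the part of the rest of the list in the Adrb3 difference was not tested. Ildr2, an immunoglobulin-like membrane protein, had the larger measured drop in females, a difference between the sexes that was not tested. It was at -3.44 and -3.07 against -4.88 and -4.97 in males and at -2.35 and -2.10 against -6.32 and -4.22 in females, a bound of at least 1.79-fold in males and at least 3.98-fold in females. Igsf1, an immunoglobulin superfamily protein known from the pituitary, was at -2.45 and -2.78 against -4.38 and -3.71 in males and at -3.17 and -3.76 against -4.12 and -6.12 in females. Ccl25, a chemokine that draws lymphocytes to the gut, was the dimmest of the 6 (wild type mean -3.44).

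The remaining 7 named members had mixed roles. Dusp14 (NM_019819, chromosome 11), a phosphatase that acts on MAP kinases, was at -2.37 and -3.04 against -3.82 and -4.87 in males and at -1.89 and -2.23 against -4.95 and -3.96 in females. Rd3 (NM_023727, chromosome 1), a regulator of guanylate cyclase in photoreceptors, was at -2.26 and -2.51 against -4.12 and -4.93 in males and at -2.83 and -2.66 against -4.15 and -4.25 in females. Both genes were at least 2-fold lower in each sex. Syce3, a protein of the synaptonemal complex of meiosis, was at -2.89 and -2.58 against -4.08 and -4.58 in males and at -2.43 and -3.13 against -5.42 and -4.64 in females. Fam81a was at -2.81 and -2.38 against -5.17 and -5.20 in males and at -3.11 and -2.84 against -4.51 and -4.44 in females. The last 3 were Stac2, Ccdc33 and the deubiquitinase Usp19, with wild type means of -3.18, -3.42 and -3.71. Several of these genes, among them Olig1, Rd3 and Syce3, are known mainly from other tissues than the liver.

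The named members not given array by array above were dim. Stac2 ran from -3.66 to -2.41 over the wild type arrays and from -4.64 to -4.16 over the labelled ones, and was at least 2.55-fold lower in males. Steap1 ran from -3.68 to -3.10 against -6.46 to -4.09, Slc29a2 from -3.56 to -3.20 against -4.59 to -3.87, and Ccdc33 from -4.09 to -2.48 against -5.08 to -4.38. In these the genotypes did not overlap, but the distance was small. Ccl25 ran from -3.84 to -3.05 against -4.54 to -4.11, Zhx2 from -3.68 to -3.25 against -4.43 to -3.84, and Usp19 from -3.94 to -3.38 against -4.66 to -4.16.

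The 15 members without a symbol had wild type means from -3.81 to -2.26, and 3 of them had gaps over 1. The brightest was A_55_P2518530, at -1.24 and -1.58 against -4.31 and -4.51 in males and at -2.64 and -3.58 against -5.30 and -5.15 in females. ENSMUST00000047399 was at -1.58 and -1.90 against -6.21 and -6.17 in males and at -3.18 and -2.92 against -6.25 and -6.45 in females, below the floor on every labelled array. AK085976 was at -1.19 and -1.74 against -5.49 and -4.92 in males and at -3.38 and -3.82 against -5.06 and -5.14 in females. ENSMUST00000060651 was at -2.01 and -1.79 against -5.23 and -5.00 in males and at -3.07 and -3.28 against -4.39 and -4.28 in females, without overlap. AK033617, the dimmest member, was at -3.79 and -3.51 against -4.53 and -4.21 in males and at -3.76 and -4.17 against -4.25 and -4.32 in females. The array named 3 others only by an mm9 interval. These were chr14:99728359-99728958 and chr11:82588507-82594501 on the forward strand and chr16:38043218-38088355 on the reverse strand, as the array names them, and no gene annotation of that build was used here. The probe of the first was at -1.67 and -2.54 against -4.38 and -4.38 in males and at -3.69 and -3.96 against -4.63 and -4.41 in females.

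Other probes of the same genes were examined for their presence on the arrays. Of the 37 named genes, 16 had at least 1 further probe and 21 had none. The 16 genes had 23 further probes. Of these, 11 probes of 8 genes were present on all 8 arrays, 7 were on no array and 5 on some. All 11 probes present throughout were lower in the labelled livers without overlap, in males and in females. This is a description from the arrays that chose the members. The share of all probes present on all 8 arrays with this pattern was not computed, so the count has no baseline. The drop was over 1 log2 unit in both sexes for 5 genes, Zfp985, Meg3, Dusp14, Ildr2 and Adrb3. For those genes the member probe was the dim one, and the gene stayed detectable in labelled livers through the brighter probe.

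The brighter Adrb3 probe was at 1.07 and 1.61 in wild type males and -3.79 and -3.32 in labelled males, and at -0.20 and -0.01 against -3.71 and -3.19 in females. Its differences were -4.90 in males and -3.35 in females, and it was present on all 4 labelled arrays. For Meg3 the brighter probe was at 0.02 and 0.15 against -3.32 and -3.02 in males and at 2.05 and 0.90 against -2.44 and -2.38 in females. Its differences were -3.26 and -3.89. Another Meg3 probe was present on 2 wild type arrays and on none of the labelled ones, and the last on no array. The brighter Ildr2 probe was at 0.84 and 0.88 against -1.17 and -0.89 in males and at 1.74 and 2.06 against -1.85 and -1.55 in females. Its drop was -1.89 in males and -3.60 in females, again deeper in females. The other Zfp985 probe, at 1.93 and 1.84 against -0.13 and -0.09 in males and at 0.95 and 0.93 against -0.24 and -0.35 in females, differed by -1.998 and -1.23. Its labelled livers thus lay well above the floor. The other Dusp14 probe differed by -1.68 in males and -1.73 in females.

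Mbd1, Ccl25 and Usp19 were detected on all arrays by further probes. One Mbd1 probe lay between 5.53 and 6.57 on all arrays and differed by -0.62 in males and -0.53 in females, while the other differed by -1.83 and -0.65. The 2 Ccl25 probes differed by -0.75 and -0.80 in males and by -0.30 and -0.23 in females. The 2 Usp19 probes differed by -0.48 and -0.35 in males and by -0.28 and -0.14 in females. None of these further probes followed the rule that chose the member probe.

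For 4 other genes a further probe was present on some arrays. The second Nox4 probe was present on all 4 wild type and 3 labelled arrays, at -0.61 and -0.60 against -4.19 and -4.43 in males and at -2.28 and -3.09 against -3.73 and -4.21 in females. The second Acsm2 probe was present on all wild type arrays and 1 labelled array. It was at 0.10 and -0.73 against -5.80 and -3.77 in males and at 0.25 and -1.95 against -4.78 and -5.82 in females, and was at least 10.6-fold lower in females. The second Wnk4 probe was present on 2 wild type arrays and no labelled one, and was at least 2.78-fold lower in males. The second Fam81a probe was present on 3 wild type arrays and 1 labelled array, and its genotypes overlapped in females. By contrast, the further probes of Lag3, Igsf1, Zdhhc2 and Ccdc33 were on no array, so those genes rest on the member probe alone.

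The rule did not use the sex labels. The difference between wild type males and females was therefore tested with limma over all 30578 probes, with Benjamini-Hochberg adjustment. The rule did use the levels of these same arrays. The floor was -4.05 and -3.84 on the male wild type arrays and -4.19 and -4.38 on the female ones. A probe near the floor thus tended to need a higher level in males to be a member. How far this shaped the counts below was not tested, so they are a description of the members. Higher levels in males passed for 6 of the 52 members, against 1.5% of all probes tested. Higher levels in females passed for 0 members, against 1.82% of all probes. At an unadjusted limma p under 0.05 the members counted 20 higher in males and 2 higher in females. The share of all probes at that unadjusted threshold was not computed, so these counts have no baseline. The median male minus female difference was 0.38 over the members and 0.05 over all probes. Both male arrays lay above both female arrays for 30 members, a pattern shown by 29.3% of the probes present on all wild type arrays. Both female arrays lay above both male arrays for 5 members (19.99% of those probes), and the sexes overlapped for 17. Without male wild type replicate 3 the 6 calls became 0, and without female wild type replicate 4 they became 1.

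Among named members, Ces4a and Gm15230 passed. Ces4a was higher in wild type males by 2.68 ± 0.59 (log2, SE, limma adjusted p = 0.0465) and Gm15230 by 1.75 ± 0.25 (limma adjusted p = 0.00801), each in 2 of 2 male arrays. Gm15230 kept its call in 7 of 8 fits that left out 1 array, with limma adjusted p from 0.0094 to 0.070. Ces4a kept it in 3 of 8, from 0.020 to 0.215. Ces4a also lost its call with quantile normalization (limma adjusted p = 0.0516), without the variance trend (0.0970) and on wild type arrays only (0.0507). The other 4 had no symbol. AK085976 was higher in males by 2.13 ± 0.36 (limma adjusted p = 0.0154) and kept its call in 6 of 8 such fits. The interval on chr14 differed by 1.72 ± 0.35 (limma adjusted p = 0.0358), A_55_P2518530 by 1.70 ± 0.36 (limma adjusted p = 0.0379) and ENSMUST00000060651 by 1.28 ± 0.28 (limma adjusted p = 0.0467). These kept their calls in 1, 1 and 0 of 8 fits. On wild type arrays only, these 3 also lost their calls (limma adjusted p = 0.0639, 0.0575 and 0.0507). With no filter on dim probes all 6 lost theirs, with limma adjusted p from 0.0502 to 0.164.

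Large male minus female differences that missed the threshold were those of Olig1 (1.94 ± 0.52, limma adjusted p = 0.0909), Wnk4 (1.84 ± 0.54, 0.115), Atp12a (1.72 ± 0.63, 0.188), Adrb3 (1.48 ± 0.34, 0.0528) and Nox4 (1.47 ± 0.46, 0.133). Zfp985 differed by 0.99 ± 0.25 (limma adjusted p = 0.0766). In the other direction stood Meg3 (-1.37 ± 0.46, limma adjusted p = 0.155), Rian (-1.21 ± 0.44, 0.186), Slc26a4 (-1.07 ± 0.58, 0.358) and Ildr2 (-1.03 ± 0.59, 0.379). None of these 4 passed, though both female arrays lay above both male arrays for each of them.

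The further probes of the named genes were tested for sex in the same fit. Of 16 further probes tested, 4 were higher in males and 1 in females, against 1.5% and 1.82% of all probes. Zfp985 was higher in wild type males by 0.95 ± 0.12 (limma adjusted p = 0.00348) and kept its call in 8 of 8 fits that left out 1 array. Nox4 was higher in males by 2.08 ± 0.31 (limma adjusted p = 0.0097), kept in 6 of 8 and lost without either male wild type array. One Mbd1 probe was higher in males by 1.42 ± 0.22 (limma adjusted p = 0.012), lost without female wild type replicate 4. Adrb3 was higher in males by 1.44 ± 0.26 (limma adjusted p = 0.0215), kept in 5 of 8 fits and lost without replicate 4 of the wild type males or without either wild type female. Ildr2 was higher in females, by -1.04 ± 0.17 as male minus female (limma adjusted p = 0.0144), kept in 5 of 8 and lost without either male array or female replicate 4. The brighter Meg3 probe, at -1.38 ± 0.32, did not pass (limma adjusted p = 0.0532). The genes thus included some that were higher in males and one, Ildr2, that was higher in females.

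The lists of liver genes held few members. Among 18 lists of liver processes and cell types, only that of male-biased liver genes held any, namely Ces4a and Nox4. Without these members, and with each gene represented by its brightest probe, 45 genes of this list were tested. In wild type livers 29 were higher in males and 2 in females by limma, against 1.52% and 1.83% of the 23870 genes tested, with a median difference of 1.78. In labelled males 34 fell and 2 rose, against 6.4% and 7.22% of all genes, with a median of -2.13. In labelled females 14 fell and 2 rose, against 3.8% and 4.31%, with a median of -0.38. In the list of growth hormone and STAT5 signalling, which held no member, 3 of 36 genes fell and 8 rose in labelled males, and 2 fell and 8 rose in labelled females. The medians there were 0.22 and 0.33, beside -0.05 and -0.02 over all genes.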

How the data were processed

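Total RNA of whole liver (0.1 ug, Cy3) was hybridised to 1-colour Agilent arrays. Per the file headers, Feature Extraction 11.5.1.1 gave the spot intensities and background flags on a design of build mm9; the submitters' processing notes name version 9.1.3.1. The deposited log2 value table, shifted by the authors to the 75th percentile of each array, matched the log2 scanner signals minus a constant (r = 1 on each array; within 0.005 for probes with 1 spot, as all members are, and within 0.364 for all probes) and supplied the levels. Presence was the mean of the well-above-background flag over a probe's spots, over 0.5. Of 56605 probes, 32994 were named by RefSeq accession.

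Group means were modelled in limma 3.58.1 (R 4.3.3, trend), over the 30578 probes that were present on each array of some group, with Benjamini-Hochberg adjustment at 0.05. Members and lists were chosen with earlier results of these data known. Array values are given for members with the highest wild type levels or widest gaps, those past the sex threshold or in a list, and those with the smallest gaps. All named members may be mentioned. A gene of a marker list is not named here. Alternatives changed the presence flag, spots, normalization, background correction, filter, variance model and arrays, or added the replicate number as a block.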

Additional observations from a re-analysis of the deposited data

How the results depend on the processing

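The member count was 52 whether all spots or all but outlier spots were used, 33 with the lenient flag (1 of them among the 52), and 59 to 98 when 1 array was left out, the most without male wild type replicate 4. The members called by sex numbered 6 in the values reported, 14 with normexp on median signals (mean signals were not used here), 0 with no filter (17 higher in males and 2 in females at an unadjusted p under 0.05), 0 to 4 with 1 array left out, and 5 to 8 under the other settings. The share of all probes at an unadjusted limma p under 0.05 was not computed, so the 17 and 2 have no baseline. The median difference between genotypes was -0.39 in males and -0.15 in females with normexp (offset 50), and the cause was not tested. With 1 array left out it was -2.22 to -1.85 in males and -1.65 to -1.40 in females. The limma sex calls over all probes fell from 1015 to 589 with no filter, to 581 without the trend, and to 476, 528 and 545 without male wild type replicate 3, replicate 4 or female wild type replicate 4. With the replicate number as a block the sex calls were 6. They rose to 1289 over all probes, and ENSMUST00000060651 lost its call (limma adjusted p = 0.0528). By the labels, same-numbered samples shared only a number. Correlations of their deviations ran from 0.01 to 0.33, the highest between wild type and labelled females. What these arrays shared was not tested. No sex difference that passed changed direction under any setting run. The members lie close to background, so the folds are given as bounds, which hold for the deposited values and do not cover the spread between arrays.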
